A study of Mus musculus with 12 samples.

Results

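Microexons of 16 to 27 nucleotides (nt) were followed through loss and return of the splicing factor Puf60 in N2A cells, a mouse neuroblastoma line. The deposited splicing table listed 1159 exons of this length among 401633 splicing events. Those with at least 10 inclusion plus exclusion reads in every one of the 12 libraries were kept, which left 527 exons in 490 genes. Inclusion is given as percent spliced in (PSI), the percentage of the reads informative on an exon that include it, and differences between PSI values are given in points.

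Every cell carried a doxycycline-inducible, siRNA-resistant Puf60 cDNA with an N-terminal 3xFlag tag, integrated in N2A Flp-In rtTA3 cells. The cDNA held the alternative exon 5 of Puf60 in the pEx5 line and lacked it in the mEx5 line. In each line, control cells received 15 nM of a non-targeting siRNA, knockdown cells 15 nM of a Puf60 siRNA, and induction cells the Puf60 siRNA and 2 µg/ml doxycycline for the last 24 h before harvest at 48 h. Polyadenylated RNA of 2 libraries, A and B, was sequenced in each of the 6 groups. The series calls them biological duplicates without saying whether they were separate cultures, so the p-values reflect the spread between these samples alone, which may be technical. No group combined doxycycline with the control siRNA, so drug and cDNA cannot be told apart in the induction groups. Each line is a single stable line with its own cDNA, so line and cDNA isoform cannot be told apart either. The sample descriptions call the doxycycline libraries uninduced, against their treatment field and titles, which were used here.

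Microexons are exons so short that the splicing machinery has little exon sequence in which to recognise them, and they rely on signals in the neighbouring introns. Many are switched on in neurons, where the protein Srrm4 promotes their inclusion, and most of those keep the reading frame and change a few amino acids at protein surfaces. Puf60 binds RNA, resembles the large subunit of U2AF and acts where U2 small nuclear ribonucleoprotein is recruited to the 3′ splice site.

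Read support bounded what could be seen. The exons of 16 to 27 nt had a median of 141 to 243 reads per library, with single exons at 10 to 8912. For the exons tested, the Wilson 95% interval of a PSI near the middle of the scale spanned 6.0 to 7.6 points to each side at the median depth of a library, which covers counting error only. Puf60 exon reads, in rpm of all exon reads of a library, were 373 to 409 in the 4 control libraries, 75 to 99 in the 4 knockdown libraries and 763 to 870 in the 4 induction libraries. Its 51 nt exon 5 had a PSI of 88.0 and 89.4% in the induced pEx5 libraries and 6.1 and 7.3% in the induced mEx5 libraries, as the treatment field implies. In the authors' deposited table, the sympathetic lineage factor Hand2 stood at 210 rpkm in pEx5 controls and 201 rpkm in mEx5 controls, and the neuronal tubulin gene Tubb3 at 444 and 407. The noradrenergic enzyme genes were low and differed between the control lines in the authors' deposited table, Dbh at 6.39 and 2.1 rpkm (FDR 4.82e-54) and Th at 0.61 and 0.2 rpkm (FDR 5.88e-06). The microglial marker Aif1 was listed at 0 rpkm in both control groups, Ptprc at 0.08 and 0.06, and Col1a1 at 0.01 and 0.03. The astrocyte marker Gfap was at 1.28 and 0.55 rpkm in the control groups and 2.97 and 2.37 on knockdown in the authors' deposited table (log2 fold changes 1.22 and 2.27, FDR 0.156 and 0.0145).

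The sequences below are those of microexons on which the results turn: the 8 matched exons with the largest losses on knockdown, that of Uggt1 for its deep coverage, a pair from the paralogs Clasp1 and Clasp2, exons that rose, and an exon that differed between the induced lines. Each was read from a GENCODE M21 transcript (mm10) after its exon was identified by chromosome, strand, exon length and the lengths of both neighbouring introns. Capitals mark the microexon, lower case the 15 bases of the exons joined to each side in the spliced RNA, all 5′ to 3′ on the strand of the gene. All of them lie in coding sequence.
Ttc28, 24 nt, chr5:111281880-111281903, plus strand: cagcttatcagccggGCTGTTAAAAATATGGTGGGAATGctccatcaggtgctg
Nrxn2, 27 nt, chr19:6488784-6488810, plus strand: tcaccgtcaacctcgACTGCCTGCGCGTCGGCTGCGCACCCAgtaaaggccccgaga
Snx14, 27 nt, chr9:88400723-88400749, minus strand: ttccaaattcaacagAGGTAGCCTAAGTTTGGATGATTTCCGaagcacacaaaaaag
Ncor1, 27 nt, chr11:62403436-62403462, minus strand: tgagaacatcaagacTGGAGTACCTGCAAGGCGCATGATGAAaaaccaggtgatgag
Prom1, 24 nt, chr5:44001270-44001293, minus strand: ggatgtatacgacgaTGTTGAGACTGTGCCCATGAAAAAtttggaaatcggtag
Fryl, 18 nt, chr5:73024771-73024788, minus strand: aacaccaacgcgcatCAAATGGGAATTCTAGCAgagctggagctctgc
Syt17, 18 nt, chr7:118443119-118443136, minus strand: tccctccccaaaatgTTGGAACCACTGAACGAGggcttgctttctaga
Afdn (Mllt4 in the deposited table), 21 nt, chr17:13848355-13848375, plus strand: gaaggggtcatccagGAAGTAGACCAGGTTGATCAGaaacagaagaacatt
Uggt1, 24 nt, chr1:36176776-36176799, minus strand: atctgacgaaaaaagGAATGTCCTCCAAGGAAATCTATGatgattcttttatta
Clasp1, 24 nt, chr1:118541675-118541698, plus strand: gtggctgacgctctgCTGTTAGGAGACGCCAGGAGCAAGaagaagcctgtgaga
Clasp2, 24 nt, chr9:113878750-113878773, plus strand: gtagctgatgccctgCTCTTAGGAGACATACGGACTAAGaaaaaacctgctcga
Plekha5, 18 nt, chr6:140537006-140537023, plus strand: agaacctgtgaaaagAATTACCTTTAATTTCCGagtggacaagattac
Ccdc66, 26 nt, chr14:27505638-27505663, minus strand: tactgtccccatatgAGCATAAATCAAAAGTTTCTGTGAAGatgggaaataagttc
Cdk5rap2, 27 nt, chr4:70246948-70246974, minus strand: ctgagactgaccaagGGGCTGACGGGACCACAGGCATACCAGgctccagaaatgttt

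Averaged over all libraries, 219 of the 527 had a PSI above 95% and 134 below 5%, and the 174 in between, in 168 genes, entered the test. Of the 353 that did not, 16 were at least 5 points lower on knockdown than in control, 0 were at least 5 points higher and 0 moved by 10 points or more. The mean includes the knockdown libraries, so exons left out by it had little room for a change of 10 points. For the same reason an exon above 95% in control was tested only where other libraries were lower. One below 5% in control was tested only where others were higher. Shares called among tested exons thus depend in part on the changes they count. Among those not tested, an 18 nt exon of the adhesion protein p120 catenin (Ctnnd1) had a mean of 98.9% in the control libraries and 93.1% on knockdown, and a 24 nt exon of the neurotrophin receptor Ntrk3 had 100.0 and 91.7%.

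Knockdown of Puf60 lowered the inclusion of microexons far more often than it raised it. In both lines together 76 of the 174 tested microexons passed the test (weighted limma, adjusted p under 0.05 over all 22769 events tested and a change of at least 10 points), against 17.5% of all events. Inclusion was lower for 73 of them (42.0%) and higher for 3 (1.72%). Among all events 12.3% were called lower and 5.21% higher, and among the 8351 tested exons of other lengths 28.3% were lower and 3.93% higher. The median change of the 174 was -8.9 points, against -4.88 points in exons of other lengths and -0.47 points over all events. The 4 knockdown libraries lay wholly below the 4 control libraries for 98 of the 174 microexons and wholly above them for 9. Of all events 18.5 and 10.6% did so, and of exons of other lengths 38.7 and 6.63%.

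The medians of single libraries show the shift without any test. Over the 174 microexons the median PSI was 44.7 and 45.1% in pEx5 controls, 26.6 and 26.9% on knockdown and 39.4 and 40.4% on induction. In the mEx5 line it was 46.7 and 47.8%, 29.1 and 30.5%, and 42.4 and 43.5%. Knockdown libraries were the lowest in both lines, and induction libraries lay between knockdown and control. Exons of other lengths had control medians of 85.4 to 86.4%, knockdown medians of 76.0 to 77.0% and induction medians of 82.2 to 83.1%.

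The largest losses came from genes of adhesion, membrane traffic, transcription and other roles. The 15 described next had the largest changes among microexons that passed the test, moved alike in both lines and showed no overlap between control and knockdown libraries, so that lack of overlap is how they were chosen.

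**Figure D1:**
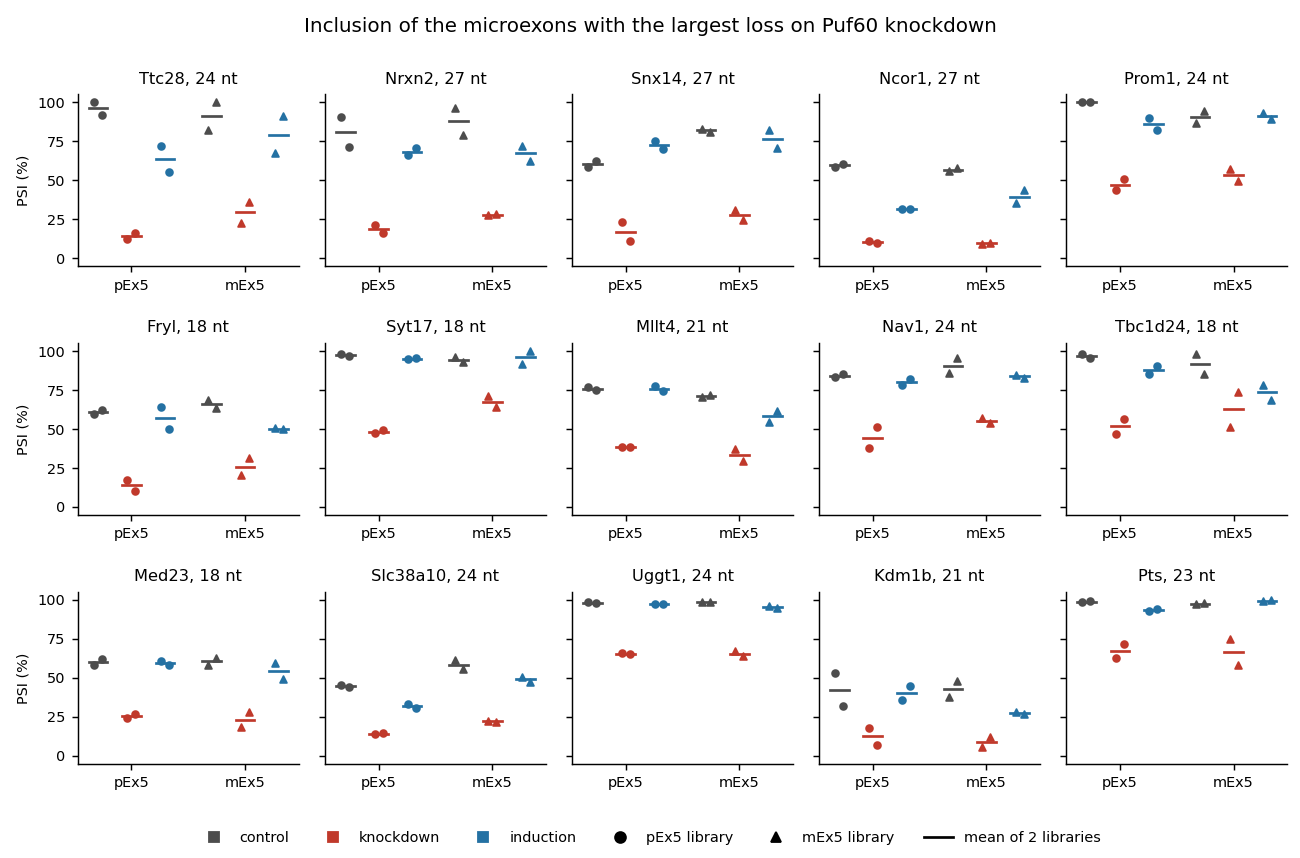
PSI in percent (vertical axis) of the 15 microexons with the largest loss on knockdown, in the pEx5 line (circles) and the mEx5 line (triangles); each symbol is 1 library, each bar the mean of 2, in control (grey), knockdown (red) and induction (blue). In every panel the red symbols lie below the grey ones of the same line, from Ttc28 with a mean change of -71.7 points to Pts with -31.3 points.

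Nrxn2 encodes a neurexin, a presynaptic adhesion protein. Its 27 nt exon was at 90.5 and 71.2% in pEx5 controls, 21.5 and 16.3% on knockdown and 65.9 and 70.6% on induction. In the mEx5 line it was at 96.4 and 79.2%, 27.5 and 28.1%, and 71.7 and 62.6%. The knockdown libraries thus lay below all others, and the exon fell by 61.0 points (log odds -2.69 ± 0.33 SE, limma adjusted p = 2.09e-05). Induction raised it by 49.4 points in the pEx5 line and 39.4 points in the mEx5 line (limma adjusted p = 0.00561 and 0.0069).

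Afdn encodes afadin, which ties nectin adhesion receptors to actin. Its 21 nt exon was at 77.1 and 74.8% in pEx5 controls, 38.4 and 38.4% on knockdown and 77.4 and 74.2% on induction. The mEx5 values were 70.3 and 71.6%, 37.3 and 29.7%, and 54.6 and 61.5%. It fell by 37.5 points (log odds -1.6 ± 0.098, limma adjusted p = 2.41e-08). The induced pEx5 libraries overlapped their controls and the induced mEx5 libraries lay below theirs, and the induced lines differed by 17.7 points (limma adjusted p = 0.00517).

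Snx14 encodes a sorting nexin of endoplasmic reticulum and endolysosomes. Its 27 nt exon was at 58.5 and 62.3% in pEx5 controls, 23.0 and 10.9% on knockdown and 74.9 and 70.0% on induction. For mEx5 they were 83.1 and 81.0%, 31.0 and 24.2%, and 82.0 and 70.6%. It fell by 48.9 points (log odds -2.21 ± 0.19, limma adjusted p = 7.59e-07), and the induced pEx5 libraries stood above their controls without passing the test (12 points, limma adjusted p = 0.253). Tbc1d24 encodes a TBC-domain protein of synaptic vesicle traffic. Its 18 nt exon had only 19 to 45 reads per library and fell by 37.1 points (limma adjusted p = 0.000781). Its means went in pEx5 from 96.7 ± 2.1 to 51.7 ± 6.4% and in mEx5 from 91.8 ± 8.8 to 62.6% (SD, n = 2, with knockdown libraries of the latter at 51.2 and 73.9%), and in mEx5 alone the change did not pass (limma adjusted p = 0.0561). Syt17 encodes a synaptotagmin-like protein. Its 18 nt exon, at 98.1 and 96.6% in pEx5 controls, was at 47.4 and 49.1% on knockdown and 94.8 and 95.5% on induction. In mEx5 it was at 96.3 and 92.8%, 70.9 and 64.2%, and 91.7 and 100.0%. The exon fell by 38.1 points (log odds -2.74 ± 0.3, limma adjusted p = 8.14e-06), and the knockdown libraries of both lines lay apart from all the others.

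Ncor1 encodes the nuclear receptor corepressor. Its 27 nt exon was at 58.7 and 60.6% in pEx5 controls, 10.8 and 10.0% on knockdown and 31.3 and 31.4% on induction. Those of mEx5 were 55.7 and 57.5%, 9.4 and 9.6%, and 35.2 and 43.8%. With 287 to 656 reads per library, it fell by 48.2 points (log odds -2.53 ± 0.11, limma adjusted p = 8.38e-10). Induction brought it only part of the way: it remained 28.3 points below control in pEx5 and 17.1 points below in the mEx5 line (limma adjusted p = 9.04e-05 and 0.0121), with no overlap. The call against control was lost under 7 of the alternative settings described below in mEx5 and under 1 in pEx5. Med23 encodes a subunit of the Mediator complex. Its 18 nt exon went in pEx5 from 58.2 and 61.9% to 24.3 and 26.9% and in mEx5 from 60.7 ± 3.0 to 23.2 ± 6.6% (SD, n = 2), a fall of 36.0 points (limma adjusted p = 1.3e-06), and stood at 59.8 ± 1.8 and 54.4 ± 7.0% on induction. Kdm1b encodes a histone H3 lysine demethylase. Its 21 nt exon, placed by the deposited table at chr13:47153046-47153066 with no assembly stated, had 19 to 83 reads and fell by 32.2 points (limma adjusted p = 0.00184), from control values of 31.8 to 53.2% to knockdown values of 5.5 to 18.1%.

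Nav1, neuron navigator 1, binds microtubules. Its 24 nt exon went in pEx5 from 84.0 ± 1.3 to 44.4 ± 9.4% and in mEx5 from 90.7 ± 6.5 to 55.4 ± 2.0% (SD, n = 2), a fall of 37.4 points (limma adjusted p = 4.85e-06). Fryl is a relative of the Furry scaffold protein. Its 18 nt exon was at 59.5 and 62.1% in pEx5 controls, 17.6 and 10.3% on knockdown and 64.4 and 49.9% on induction. In mEx5 it was at 68.5 and 63.4%, 20.7 and 31.2%, and 50.8 and 49.7%. It fell by 43.4 points (limma adjusted p = 5.16e-06), and the induced libraries of pEx5 overlapped their controls while those of mEx5 lay below theirs by 15.7 points without passing the test (limma adjusted p = 0.249).

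Uggt1 encodes the glucosyltransferase that senses unfolded glycoproteins. Its 24 nt exon was the most deeply covered of the 15, with 640 to 1028 reads. It was at 98.4 and 98.0% in pEx5 controls, 65.8 and 65.2% on knockdown and 97.3 and 97.3% on induction, and in mEx5 at 98.8 and 98.7%, 66.9 and 64.2%, and 95.9 and 94.9%. It fell by 32.9 points (log odds -3.5 ± 0.13, limma adjusted p = 2.4e-10), and libraries of a group differed by at most a few points. Pts encodes an enzyme of tetrahydrobiopterin synthesis. Its 23 nt exon, whose length is not a multiple of 3, fell by 31.3 points (limma adjusted p = 1.98e-06) in pEx5 from 98.8 ± 0.7 to 67.1 ± 6.3% and in mEx5 from 97.6 ± 0.4 to 66.6 ± 11.8% (SD, n = 2). In the authors' deposited table the Pts gene also had log2 fold changes of -1.38 and -1.35 on knockdown in the same lines (FDR 2.83e-76 and 5.22e-67). The 24 nt exon of the amino acid transporter Slc38a10 fell by 33.5 points (limma adjusted p = 6.7e-08), in pEx5 from 44.8 ± 1.1 to 14.3 ± 0.4% and in mEx5 from 58.4 ± 4.1 to 22.1 ± 0.2%.

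A pair of exons with large losses rested on few reads. The 24 nt exon of Ttc28, which encodes a protein of tetratricopeptide repeats, was at 100.0 and 91.9% in pEx5 controls, 12.3 and 16.2% on knockdown and 72.0 and 55.3% on induction. In mEx5 it was at 82.2 and 100.0%, 22.7 and 36.0%, and 67.3 and 91.1%. It fell by 71.7 points (log odds -3.37 ± 0.6, limma adjusted p = 0.00055) on 11 to 25 reads per library. In pEx5 library A the Wilson 95% interval was 82.4 to 100.0% in control and 4.2 to 30% on knockdown. The 24 nt exon of Prom1, which encodes the membrane protein prominin 1 (CD133), had 15 to 35 reads and fell by 45.2 points (limma adjusted p = 0.000527), in pEx5 from 100.0 and 100.0% to 43.4 and 50.7% and in mEx5 from 86.9 and 94.4% to 57.3 and 49.2%.

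Only 3 microexons rose on knockdown by the test, and their changes were small beside the losses. The 18 nt exon of Plekha5, a pleckstrin homology protein, was at 17.6 and 12.6% in pEx5 controls and 23.5 and 26.8% on knockdown, and at 14.5 and 10.6% and 19.2 and 34.9% in mEx5. It rose by 12.3 points (limma adjusted p = 0.00336). The 26 nt exon of Ccdc66, a microtubule-binding protein, rose by 10.9 points (limma adjusted p = 0.00816), in pEx5 from 27.4 ± 5.0 to 40.3 ± 2.8% and in mEx5 from 34.2 ± 0.2 to 43.2 ± 2.1% (SD, n = 2). In both of these the control and knockdown libraries did not overlap, and each passed in 1 line alone, Plekha5 in mEx5 and Ccdc66 in pEx5. Neither passed in unweighted limma with no filter on mean PSI (limma adjusted p = 0.121 and 0.137), nor did Plekha5 in weighted limma with no such filter (limma adjusted p = 0.0799). Plekha5 fell short of 10 points without library B of the mEx5 knockdown (8.4 points), and Ccdc66 without library A of the pEx5 control (9.2 points) or of the pEx5 knockdown (just under 10).

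Some microexons at middle inclusion had small mean changes over both lines. Among those with a control PSI of 20 to 80% in both lines, the 5 with the smallest changes were a 27 nt exon of the potassium channel gene Kcnq5 (0.5 points), a 22 nt exon of Elmod3 (0.5), a 27 nt exon of the phosphodiesterase gene Pde1c (-0.7), a 24 nt exon of the kinase gene Mink1 (-0.7) and a 24 nt exon of the centrosome gene Cspp1 (0.9). In Kcnq5 and Pde1c the mean joined opposite changes, 5.8 points in pEx5 and -4.8 in mEx5 for Kcnq5 and -7.0 and 5.6 points for Pde1c, none of which passed. The Elmod3 exon had 12 to 34 reads, with mEx5 controls at 41.8 and 11%. The Mink1 exon was at 71.2 and 72.4% in pEx5 controls and 72.9 and 68.6% on knockdown, and its libraries overlapped in both lines. These 5 did not pass the test, with limma adjusted p of 0.869 to 0.939.

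Each line on its own gave a like count. In pEx5 64 of 174 microexons were called, 61 lower and 3 higher (36.8%, against 15.2% of all events, 11.1% lower and 4.15% higher). In mEx5 67 were called, 65 lower and 2 higher (38.5%, against 12.9% of all events, 9.47% lower and 3.44% higher). Exons of other lengths came closer than all events, with 29.3% called in pEx5 (25.8% lower, 3.52% higher) and 25.3% in mEx5 (22.6% lower, 2.65% higher). The lines share no library in these contrasts, but the filters and the spread of the fit came from all 12 libraries. The calls of the lines are thus not wholly independent. In both, 53 microexons were called, all in the same direction, which is 82.8% of the pEx5 calls and 79.1% of the mEx5 calls. Such shares, here and for induction below, were not computed for other events, so they do not set microexons apart. Across the 174 microexons, 129 were lower and 21 higher in both lines and 24 had opposite signs, and the changes were correlated with r = 0.89 (Pearson) and rho = 0.88 (Spearman), given as a description since exons of the same libraries are not independent replicates. Over all 527 exons, with no filter on mean PSI, weighted limma called 47 in pEx5 and 41 in mEx5 and unweighted limma 37 and 27. Without library B of the mEx5 control, 43 were called in mEx5. The difference of the knockdown change between lines was itself tested: limma called 0 of 174 (0.0% of all events), with 7 at an unadjusted p under 0.05, and unweighted limma with no filter on mean PSI also called 0.

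**Figure D2:**
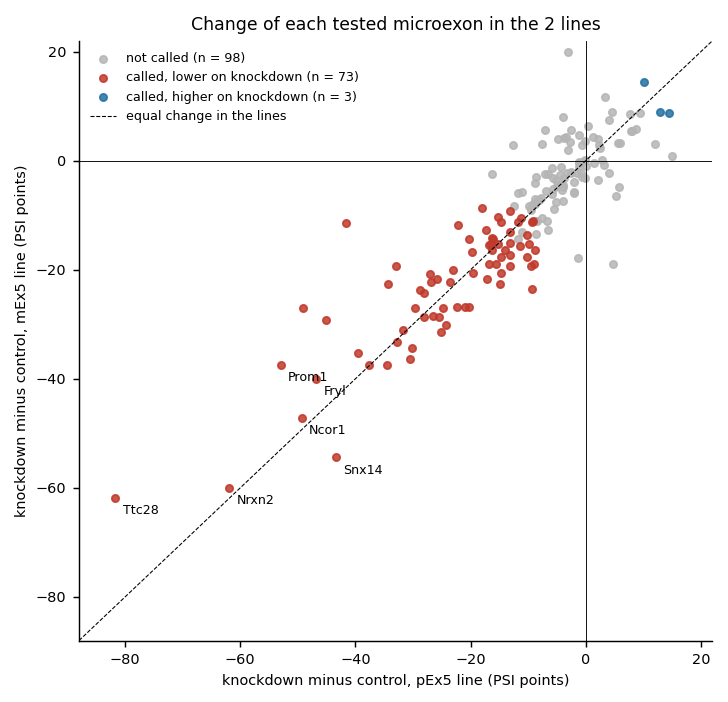
Knockdown minus control in PSI points for the 174 tested microexons, in pEx5 (horizontal) and mEx5 (vertical); red points were called lower in both lines together (73), blue points higher (3), grey points not called (98), and the dashed line marks an equal change. Most points lie below 0 on both axes, and Ttc28 is farthest out at -81.7 points in pEx5 and -61.8 points in mEx5.

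The host genes of the called microexons were read through 8 lists of roles, fixed by name but with earlier results of these data known. Of 12 tested microexons in genes of vesicle and membrane traffic 7 fell, with a median change over the 12 of -20.5 points. Kinases, phosphatases and signalling adaptors had 8 of 11 lower (median -13.6), cytoskeleton and motor genes 6 of 13 (-8.4), and adhesion, guidance and receptor genes 4 of 6 (-17.3). Small GTPase regulators had 3 of 5 lower (-12.1), transcription and chromatin genes 3 of 6 (-12.2), RNA-binding, splicing and translation genes 2 of 4 (-10), and the channel and transporter list 1 of 1 (-15.8). Of the listed genes 0 had a microexon called higher. Among the 116 microexons of genes in no list 39 fell and 3 rose (median -6.0), and over all 174 the median was -8.9. Of all 174 tested microexons 42.0% were called lower, beside 28.3% of exons of other lengths and 12.3% of all events. The lists hold few tested exons, and whether any list differs from these shares was not tested.

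**Figure D3:**
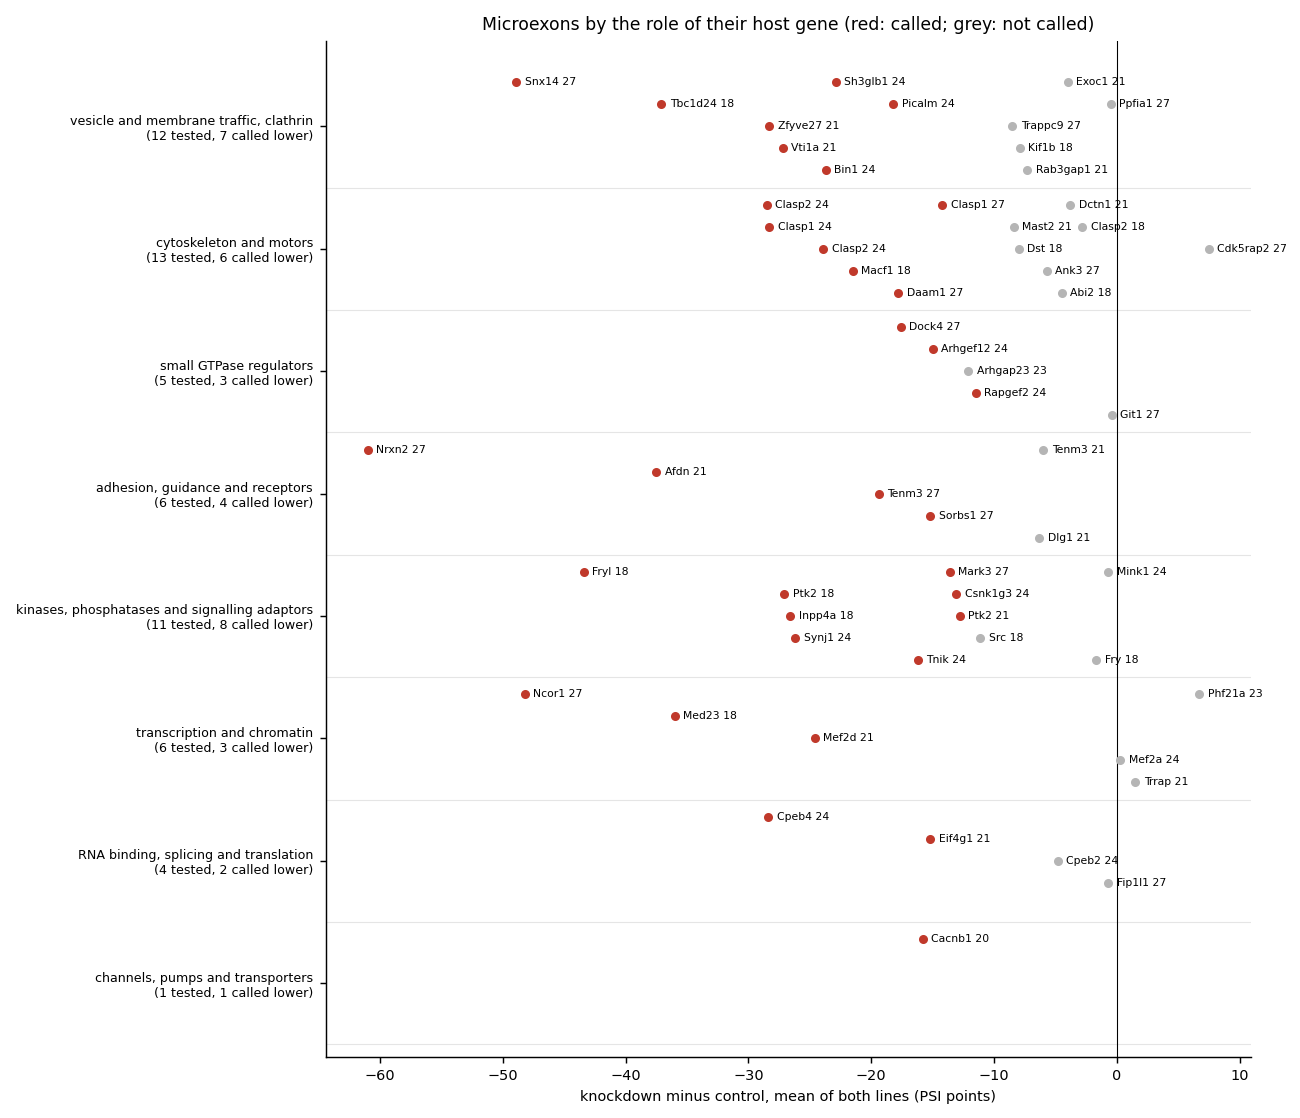
Change of PSI on knockdown (horizontal axis, points, mean of both lines) for the tested microexons in the 8 role lists, each point 1 exon labelled by gene and length in nt, red where called and grey where not. Points spread from Nrxn2 at -61.0 points to Cdk5rap2 at 7.5 points, and the vertical position within a list has no meaning.

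The examples from the lists that follow were chosen after their values were seen. In membrane traffic, the 21 nt exon of the SNARE protein Vti1a was at 28.5 and 36.6% in pEx5 controls and 10.0 and 6.6% on knockdown, and at 37.5 and 45.4% and 10.0 and 12.8% in mEx5. It fell by 27.2 points (limma adjusted p = 1.31e-06), with all knockdown libraries below all controls. In Sh3glb1, endophilin B1, a 24 nt exon fell by 22.9 points (limma adjusted p = 6.81e-08), in pEx5 from 40.2 ± 1.4 to 16.6 ± 1.5% and in mEx5 from 42.5 ± 1.3 to 20.1 ± 1.3% (SD, n = 2). The 21 nt exon of Zfyve27, the endoplasmic reticulum protein protrudin, fell by 28.3 points (limma adjusted p = 0.00127), and 1 induced mEx5 library at 17.8% stood far from the other at 53.5%. The 18 nt exon of the kinesin gene Kif1b was lower in all knockdown libraries, at 87.7 to 90.1% against 95.9 to 97.8% in controls, and its change of -7.9 points missed the 10 points required (limma adjusted p = 1.83e-05).

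Among kinases and phosphatases, Ptk2, the focal adhesion kinase, holds a pair of microexons that both fell. Its 18 nt exon went from 42.7 to 44.3% in the 4 controls to 13.9 to 18.8% on knockdown (-27.1 points, limma adjusted p = 5.16e-08). Its 21 nt exon went from 97.3 to 98.7% to 82.7 to 89.6% (-12.8 points, limma adjusted p = 2.07e-07). Both exons were matched in GENCODE M21 to transcripts annotated as non-coding. In Synj1, the phosphoinositide phosphatase synaptojanin 1, a 24 nt exon fell by 26.2 points (limma adjusted p = 1.13e-05), in pEx5 from 71.4 ± 5.0 to 43.4 ± 0.3% and in mEx5 from 76.1 ± 0.9 to 51.7 ± 6.5% (SD, n = 2). The 18 nt exon of the tyrosine kinase Src had 33 to 78 reads and a change of -11.1 points that did not pass (limma adjusted p = 0.058).

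The microtubule plus-end proteins Clasp1 and Clasp2 are paralogs that share a microexon. The 24 nt exons printed above are identical at 17 of 24 bases (70.8%). That of Clasp1 was at 57.3 and 54.2% in pEx5 controls, 32.0 and 29.3% on knockdown and 48.7 and 53.4% on induction, and in mEx5 at 75.9 and 73.4%, 46.2 and 40.2%, and 74.9 and 74.4%. That of Clasp2 was at 68.8 and 68.5%, 39.0 and 29.8%, and 60.8 and 58.4% in pEx5, and at 63.8 and 73.5%, 42.0 and 49.8%, and 69.2 and 66.4% in mEx5. The exons fell by 28.3 and 28.5 points (limma adjusted p = 3.55e-07 and 8.83e-06), and all knockdown libraries of a line lay below its controls. Both genes hold further microexons. A 27 nt exon of Clasp1 (chr1:118523321-118523347, mm10) fell by 14.2 points, a second 24 nt exon of Clasp2 fell by 23.9 points, and an 18 nt exon of Clasp2, at 7.6 to 9.9% in controls, changed by -2.8 points without passing the test (limma adjusted p = 0.196). In the same list, the 18 nt exon of the spectraplakin gene Macf1 fell by 21.5 points (limma adjusted p = 9.03e-06), and the 27 nt exon of the formin gene Daam1 fell by 17.8 points (limma adjusted p = 0.00328).

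Some genes held several microexons whose changes differed in size, a difference that was not tested. Tenm3, a teneurin of synaptic adhesion (Odz3 in the deposited table), had a 27 nt exon that went in pEx5 from 23.8 ± 2.1 to 6.6 ± 1.1% and in mEx5 from 30.1 ± 4.5 to 8.4 ± 1.1% (SD, n = 2; -19.4 points, limma adjusted p = 5e-06). Its 21 nt exon changed by -6.0 points, short of the 10 points required (limma adjusted p = 0.00808). In Prom1, the 27 nt exon fell by 18.8 points (limma adjusted p = 0.0351) beside the 45.2 points of the 24 nt exon.

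Regulators of transcription and translation closed the lists. The 21 nt exon of the transcription factor gene Mef2d fell by 24.6 points (limma adjusted p = 2.03e-05), in pEx5 from 94.0 ± 4.7 to 67.2 ± 1.6% and in mEx5 from 96.0 ± 0.6 to 73.7 ± 4.6% (SD, n = 2), while the 24 nt exon of Mef2a changed by 0.3 points (limma adjusted p = 1.0). The 24 nt exon of Cpeb4, which binds cytoplasmic polyadenylation elements, went in pEx5 from 42.9 and 35.0% to 8.5 and 13.0% and in mEx5 from 46.5 and 40.8% to 14.5 and 15.4%. It fell by 28.4 points (limma adjusted p = 9.26e-07) with no overlap, and the 24 nt exon of Cpeb2, at 94.9 to 97.0% in controls, changed by -4.8 points without reaching 10. The 21 nt exon of the translation initiation scaffold Eif4g1, with 643 to 1328 reads, fell by 15.2 points (limma adjusted p = 4.49e-06). Outside the lists, the 27 nt exon of Max, the partner of Myc, fell by 24.0 points (limma adjusted p = 2.29e-07), and the 24 nt exon of the axon guidance ligand Slit2 fell by 25.9 points (limma adjusted p = 7.43e-08). The Slit2 exon went in pEx5 from 31.5 and 31.6% to 7.0 and 6.6% and in mEx5 from 40.5 and 37.7% to 11.4 and 12.6%.

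Short exons of other lengths were set beside these. The share of tested exons called lower on knockdown was 47.2% of 106 at 3 to 15 nt, 42.0% of 174 at 16 to 27 nt, 35.7% of 675 at 28 to 50 nt, 31.6% of 3023 at 51 to 100 nt and 25.1% of 3636 at 101 to 200 nt. It was 21.2% of 561 at 201 to 300 nt and 24.9% of 350 over 300 nt. At the edges of the length range, 13 of 27 tested exons of 15 nt, 0 of 1 of 16 nt, 18 of 43 of 27 nt and 0 of 9 of 28 nt were called lower. Classes also differed in their control inclusion: the median control PSI was 45.4% at 16 to 27 nt and 80.9 to 88.2% in the classes above 27 nt, and how much of the difference between classes goes with it was not tested. Split by control PSI, the share lower was 51.9% of 27 microexons against 27.2% of 685 other exons at 20 to 40%, 69.0% of 29 against 39.5% of 539 at 40 to 60%, and 83.3% of 18 against 39.5% of 990 at 60 to 80%. At 80 to 100% it was 43.4% of 53 against 31.2% of 4865. Under 20% it was 2.13% of 47 against 4.32% of 1272, where few exons have 10 points to lose.

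**Figure D4:**
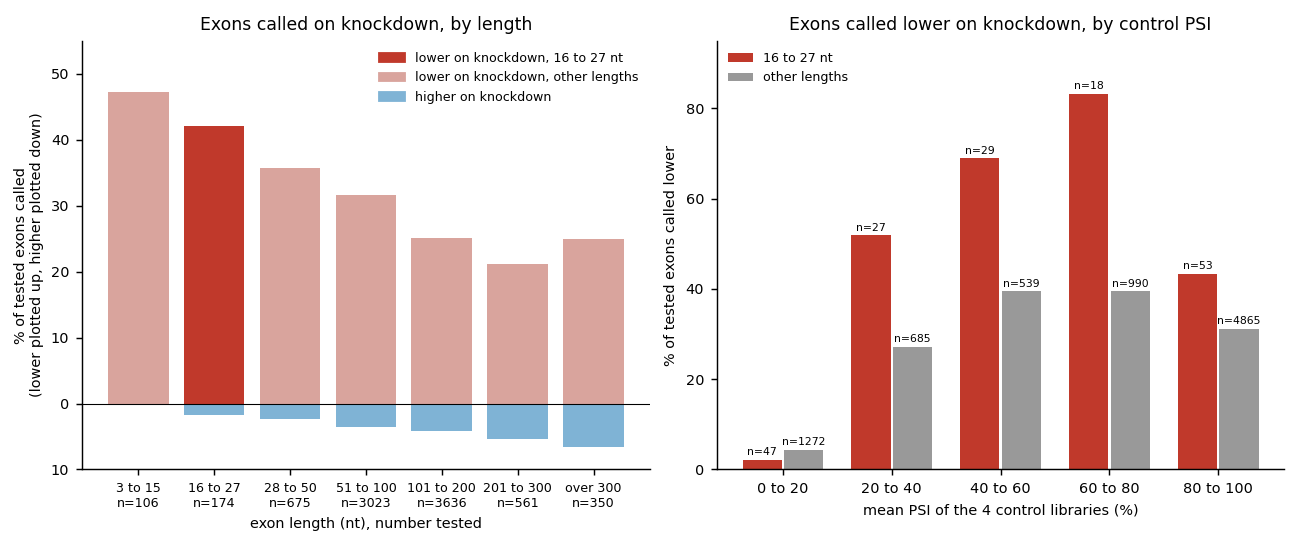
Left, percent of tested exons called lower (up) or higher (down) on knockdown in both lines, by exon length, with 16 to 27 nt in dark red; right, percent called lower by mean control PSI, for exons of 16 to 27 nt (red) and of other lengths (grey), with the number tested at each bar. The share lower goes from 47.2% at 3 to 15 nt to 21.2% at 201 to 300 nt and is 24.9% over 300 nt. Among microexons it is highest, 83.3%, at a control PSI of 60 to 80%.

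Among lengths that are multiples of 3, exons of 24 nt fell most often, 27 of 43, followed by 18 of 43 exons of 27 nt, 12 of 29 of 21 nt and 9 of 29 of 18 nt, of which 2 rose. Together the 144 tested microexons whose length is a multiple of 3 had 66 lower (45.8%, median change -9.4 points), and the 30 others had 7 lower (23.3%, median -2.3 points). In exons of other lengths these shares were 29.3 and 27.5%. The control medians of the microexons were 45.8 and 36.3%. A multiple of 3 was the length of 90.4% of the 73 microexons called lower, of 77.2% of the other tested ones, of 44.7% of those with a mean PSI above 95% and of 64.2% of those below 5%. GENCODE M21 held a matching exon for 67 of the 73, of which 62 lay wholly in coding sequence. The median GC content of these 67 was 44.4%, against 48.0% in 83 matched microexons that were tested and not called lower. The median intron upstream of a microexon that fell was 1852 nt and the median intron downstream 1403 nt, against 1066 and 1930 nt for the other tested ones. The median control PSI was 63.4% for those that fell and 23.2% for the other tested ones. Exons of low control inclusion have few points to lose, so these contrasts also set exons of unlike control inclusion side by side. The part of control inclusion in them was not tested.

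Expression of the genes that regulate microexons was read from the authors' deposited table, which gives a single rpkm per group. Srrm4, the neural activator of microexons, stood at 8.42 rpkm in pEx5 control and 5.88 on knockdown, and at 9.05 and 6.38 in mEx5, with log2 fold changes of -0.53 and -0.46 (FDR 4.81e-18 and 8.76e-14 in the authors' deposited table). Its relative Srrm3 had log2 fold changes of -0.02 and 0.08 in that table. The polypyrimidine tract binding protein gene Ptbp2 went from 64.9 to 21.1 rpkm and from 63.0 to 25.2 rpkm, with log2 fold changes of -1.81 and -1.6, in the authors' deposited table. Rbfox2 had -0.48 and -0.34, Elavl2 -1.08 and -0.96, and U2af2 -0.31 and -0.34 in the same table. Of 34 regulators listed, 32 had a fold change in the authors' deposited table, 14 were lower in both lines at an FDR under 0.05, Puf60 as the target of the siRNA among them, and 2 were higher, with a median log2 fold change of -0.15. Among neural markers, Hand2 had log2 fold changes of 0.02 and 0.01 on knockdown in the authors' deposited table, the secretory granule gene Chga -0.77 and -0.76 (FDR 1.21e-26 and 1.91e-25) and the transcription factor gene Gata3 0.75 and 0.86 (FDR 9.71e-13 and 5.48e-15). The part of these changes in the loss of microexons was not tested. In bulk RNA, fewer cells of a type and less RNA per cell cannot be told apart. The host genes of the 73 lost microexons numbered 69, of which 25 were lower and 10 higher in both lines in the authors' deposited table. That is 36.2 and 14.5%, beside 33.3 and 12.5% for the hosts of the other tested microexons and 13.7 and 10.1% of all genes with a fold change.

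Microexons were more often higher than lower in induction against knockdown libraries of both lines, where doxycycline and cDNA cannot be told apart. In pEx5, induction against knockdown called 48 of 174 microexons (27.6%, against 7.29% of all events, 5.87% higher and 1.41% lower), 46 higher and 2 lower, with a median change of 6.12 points. In mEx5 it called 51 (29.3%, against 10.4% of all events, 7.95% higher and 2.45% lower), 45 higher and 6 lower, with a median of 6.48 points. Exons of other lengths had medians of 2.6 and 3.36 points. The lines share no library in these contrasts either, but again share the filters and the spread of the fit. In both, 35 microexons were called, all in the same direction, which is 72.9% of the pEx5 and 68.6% of the mEx5 calls. Exons of other lengths were called in 14.9 and 19.9% of cases. With no filter on mean PSI, weighted limma called 29 in pEx5 and 23 in mEx5 and unweighted limma 11 and 15. The largest gains were those of Snx14, by 55.5 points in pEx5, and Ttc28, by 49.9 points in mEx5. The exons called lower in pEx5 were those of Cdk5rap2 (-17.0 points) and Mink1 (-15.8). Those called lower in mEx5 include exons of Rasgrp2 (-18.0), Trrap (-15.6), Plekha5 (-15.6), Prss41 (-13.6) and 2410002O22Rik (-11.1). The 73 microexons that fell on knockdown had library medians of 58.7 to 63.4% in controls and 29.3 to 38.6% on knockdown, which is how they were chosen. In the induction libraries, which enter the filters and the spread of the fit but not the contrast behind that choice, their medians were 51.7 and 53.4% in pEx5 and 59.4 and 53.6% in mEx5.

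Fewer microexons were called when induction was compared with control. In pEx5 14 of 174 were called (8.05%, against 3.37% of all events, 2.23% lower and 1.14% higher), 13 lower and 1 higher. In mEx5 10 were called, all lower (5.75%, against 1.4% of all events, 0.856% lower and 0.54% higher). Of these 5 were called in both lines, which is 5 of the 14 pEx5 and 5 of the 10 mEx5 calls. Among exons of other lengths 6.29% were called in pEx5 and 2.3% in mEx5, and the median changes were -1.93 and -1.75 points in microexons against -1.92 and -1.6 points in those exons. With no filter on mean PSI, weighted limma called 7 and 4 and unweighted limma 0 in either line, and leaving out any 1 of the 4 libraries compared gave 5 to 7 in pEx5 and 2 to 4 in mEx5. At an unadjusted p under 0.05 the weighted limma fit gave 46 and 42.

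Dock4, an activator of the small GTPase Rac, was called in both lines. Its 27 nt exon was at 68.8 and 69.6% in pEx5 controls, 55 and 54.0% on knockdown and 51.7 and 52.6% on induction. The mEx5 libraries had 72.3 and 69.5%, 48.2 and 52.5%, and 46.2 and 46.4%. The induced libraries lay below those of knockdown in each line, and against control the exon was lower by 17.0 points in the pEx5 line and 24.6 points in the mEx5 line (limma adjusted p = 0.00333 and 0.00153). In Ckap5, a microtubule polymerase, a 24 nt exon was at 37.4 and 34.1%, 21.7 and 21.5%, and 20.6 and 17.0% in pEx5, and at 39.4 and 35.6%, 21.8 and 20.6%, and 19.5 and 20.0% in mEx5. After induction it was lower than in control by 17.0 and 17.8 points (limma adjusted p = 0.00107 and 0.00226), and it was matched in GENCODE M21 to a transcript annotated as non-coding.

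The other exons named by size were called in a single line. Each of these calls was lost under 5 to 8 of the alternative settings described below. The 25 nt exon of the membrane protein gene Mfsd6 was at 38.9 ± 0.4% in pEx5 controls and 18.6 and 23.3% on induction (SD, n = 2; -17.9 points, limma adjusted p = 0.0147), and changed by -8.1 points in mEx5. In the JNK scaffold gene Mapk8ip3 a 24 nt exon was at 76.8 ± 1.8% in mEx5 controls and 60.3 ± 3.1% on induction (-16.5 points, limma adjusted p = 0.0129), against -9.0 points in pEx5. The 23 nt exon of Rasgrp2, a Rap activator, did not pass on knockdown (-1.5 points) and was lower after induction in mEx5, at 75.7 and 78.6% against 98.3 and 96.4% in controls (-20.1 points, limma adjusted p = 0.0276). In pEx5 its induced libraries, at 91.4 and 77.0%, did not pass against controls at 100.0 and 91.4% (-11.6 points, limma adjusted p = 0.376). Mink1 had its 24 nt exon at 54.7 and 55.1% in induced pEx5 cells and between 66.6 and 73.0% in all other libraries. It was lower than pEx5 control by 16.9 points (limma adjusted p = 0.00949).

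The induced lines were then compared with each other, a comparison in which the line and exon 5 of the cDNA cannot be told apart. The test called 17 of 174 microexons (9.77%, against 2.85% of all events, 1.31% higher and 1.54% lower), 6 higher in pEx5 and 11 lower. Among exons of other lengths 5.36% were called. Leaving out any 1 of the 4 induced libraries gave 8 to 11, and with no filter on mean PSI weighted limma gave 6 and unweighted limma 0. Before any knockdown the control libraries of the lines gave 0 of 174 in weighted limma (0.0351% of all events), with 23 at an unadjusted p under 0.05, and 1 with a pseudocount of 1 read. Some of the 17 nevertheless stood apart in the controls by a like amount without passing. When the change from control was compared between the lines, a test chosen after seeing the data, 3 microexons passed, and for the change from knockdown 1 did.

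**Figure D5:**
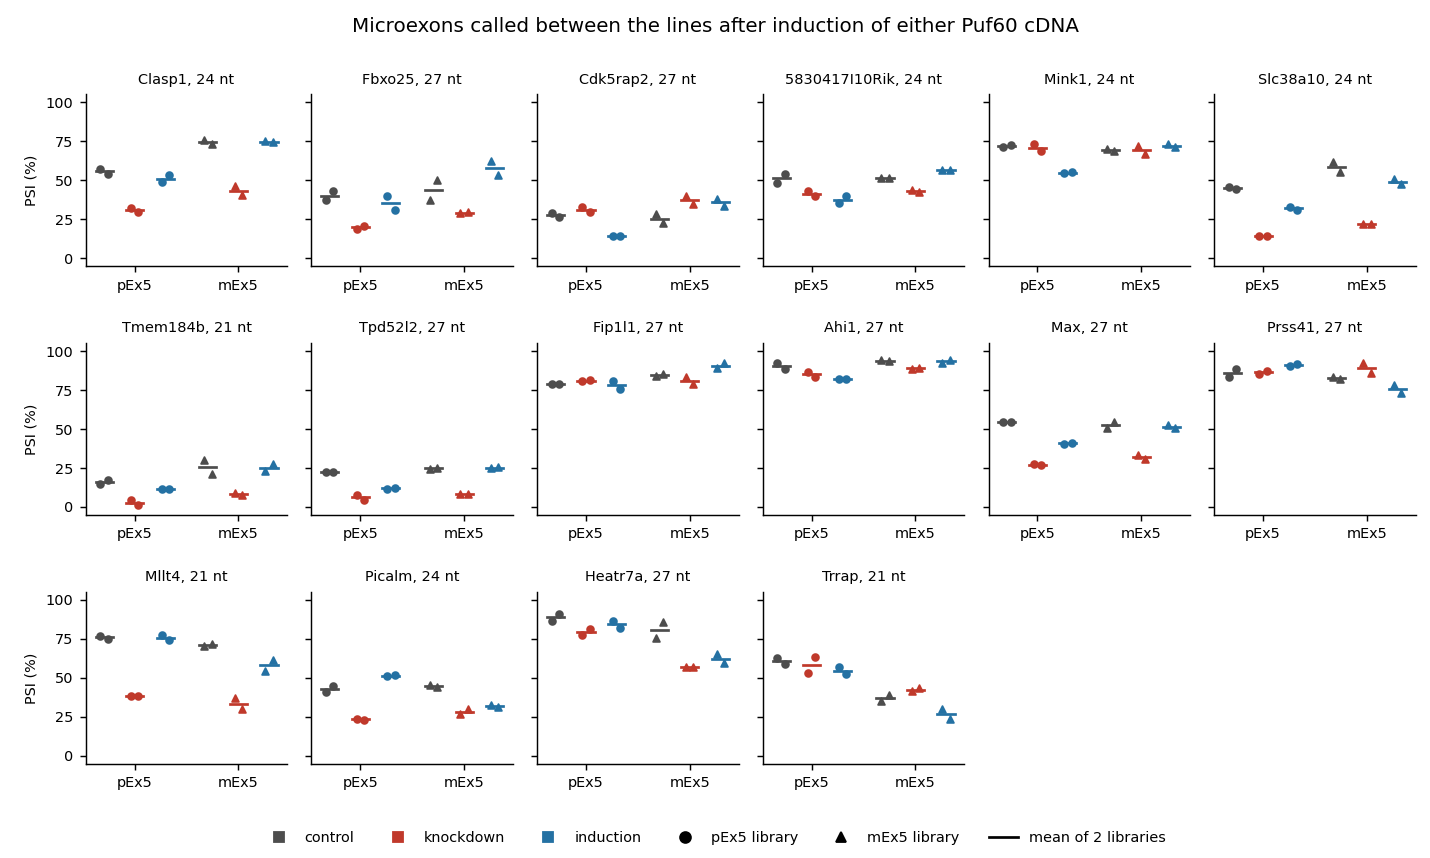
PSI in percent (vertical axis) of 16 of the 17 microexons called between induced pEx5 and induced mEx5 cells, ordered from the most negative to the most positive difference; circles are pEx5 libraries, triangles mEx5 libraries, bars means of 2, in control (grey), knockdown (red) and induction (blue). Clasp1 and Trrap show similar gaps between the lines in control libraries, whereas the control libraries of Picalm and Cdk5rap2 lie together and their induced libraries lie apart.

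Picalm, a clathrin assembly protein singled out after its values were seen, had the deepest coverage of the 17 with 1036 to 1804 reads. Its 24 nt exon was at 41.2 and 45.0% in pEx5 controls, 23.9 and 23.0% on knockdown and 50.9 and 51.7% on induction. In mEx5 it was at 45.6 and 44.1%, 26.5 and 29.7%, and 32.6 and 31.3%. The lines overlapped in control, and once induced they differed by 19.3 points (log odds 0.8 ± 0.1, limma adjusted p = 0.000583). Against control the induced mEx5 libraries were lower by 12.9 points (limma adjusted p = 0.0141).

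Cdk5rap2 encodes a centrosomal protein, and its 27 nt exon did not follow the common pattern. It was at 29.0 and 26.4% in pEx5 controls, 32.5 and 29.8% on knockdown and 14.2 and 14.1% on induction. The mEx5 libraries had 28.5 and 22.3%, 39.6 and 34.5%, and 38.1 and 33.7%. Induced pEx5 cells were the lowest of all groups, 21.7 points below induced mEx5 cells (log odds -1.22 ± 0.19, limma adjusted p = 0.00241).

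For Clasp1 and Trrap the lines lay apart before knockdown too, although the control difference did not pass the test. The 24 nt exon of Clasp1 was 23.6 points lower in induced pEx5 than in induced mEx5 cells (limma adjusted p = 0.00111) and 18.9 points lower in control (limma adjusted p = 0.0565). The 21 nt exon of Trrap, a scaffold of histone acetyltransferase complexes, placed by the deposited table at chr5:145571201-145571221 with no assembly stated, was 27.6 points higher in induced pEx5 cells (limma adjusted p = 0.0067) and 23.8 points higher in control (limma adjusted p = 0.114). It was at 62.8 and 58.6% in pEx5 controls and 34.9 and 38.8% in mEx5 controls. These did not overlap, and on knockdown the exon changed by 1.5 points without passing (limma adjusted p = 0.834).

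The 27 nt exon of the F-box gene Fbxo25 was at 40 and 30.7% in induced pEx5 and 62.4 and 53.6% in induced mEx5 cells (-22.7 points, limma adjusted p = 0.0245), with controls at 40.1 ± 4.0 and 43.6 ± 9.0% (SD, n = 2). The 27 nt exon of Mroh1 (Heatr7a in the deposited table) was at 86.3 and 82.2% against 65.4 and 59.3% (21.9 points, limma adjusted p = 0.0127), with controls at 88.8 ± 3.2 and 80.7 ± 7.2%. The induced libraries of the lines did not overlap in either exon, but each call was not kept under 7 of the alternative settings. On knockdown the Mroh1 exon was at 77.7 and 81.3% in pEx5 and 57.2 and 57.0% in mEx5, and the change from knockdown to induction differed between the lines by -0.5 points (limma adjusted p = 0.959). The controls overlapped for Fbxo25, and for Mroh1 the pEx5 controls, at 86.6 and 91.1%, lay above the mEx5 controls at 75.7 and 85.8%. The remaining differences ranged from -19.4 points in 5830417I10Rik to 15.4 points in Prss41, apart from the 17.7 points of Afdn given above. They include the exons of Slc38a10 (-17.1), Mink1 (-17.1), Tmem184b (-13.6), Tpd52l2 (-13.2), Fip1l1 (-12.4), Ahi1 (-11.5) and Max (-10.6).

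The authors' own True or False calls, whose criterion is not stated, were set beside the test. Among the 174 microexons the authors' deposited table marked 97 as True on knockdown in pEx5 and 86 in mEx5 (3.63 and 3.03% of all its events), which held 62 of the 64 and 66 of the 67 called here. For induction against knockdown it marked 73 and 70 (2.21 and 2.64% of all events), for the induced lines 33 (1.38%) and for the control lines 14 (0.519%). These percentages are over every event with a value in that comparison, such as 228620 for knockdown in pEx5. The 174 had passed filters on reads and mean PSI that were not applied to those events, so counts and percentages cannot be compared directly.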

How the data were processed

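RNA of 12 libraries of 2 N2A lines was measured by RNA-seq. The authors deposited a splicing table with PSI in percent and corrected inclusion and exclusion reads per event and library, without stating the assembly of its coordinates. A second splicing table deposited by the authors holds a score and True or False calls per comparison, with no stated criterion. The authors' deposited expression table holds rpkm per group, with log2 fold changes and FDR values (adjusted p-values). Salmon 0.14.1, edgeR and mm10 are named in the submitters' processing notes.

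Events with at least 10 reads in all 12 libraries and a mean PSI of 5 to 95% were tested. The natural log odds of inclusion (pseudocount 0.5 reads) were fitted with limma 3.58.1 (R 4.3.3), with 1 coefficient per group. Weights were the inverse of the counting variance plus 0.01. Calls needed a Benjamini-Hochberg adjusted p under 0.05 over all 22769 events and 10 points. The PSI lay within 0.02 points of that computed from the corrected reads in 99.72% of values, and corrected reads give weights and intervals for counting error only. The fit was also run on simulated reads. Their added spread between libraries had the same variance of 0.01 as the weights, so that run does not cover a larger spread.

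Exons named were the 15 with the largest losses on knockdown whose libraries did not overlap, those that rose, up to 5 by size per other comparison, and the 5 at middle inclusion with the smallest change. Members, lists and rules were chosen with earlier results of these data known. Alternatives were other thresholds, weights, read minimums and pseudocounts, a replicate block and each library left out. Intron sequence was not used here. Some single-gene results are not reported here, while counts include every exon tested.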

Additional observations from a re-analysis of the deposited data

Results flagged for a closer look

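In 2 microexons described here the response to induction differed between the lines by a test of the difference itself, added after seeing the data (limma, adjusted over all events). For the 24 nt exon of Picalm, the change from knockdown to induction was 23.9 points greater in pEx5 than in mEx5 (limma adjusted p = 0.00646), and the change from control to induction 21 points greater (limma adjusted p = 0.0118). The 27 nt exon of Cdk5rap2 had a difference of -24.1 points in the change from control (limma adjusted p = 0.0227), with both induced pEx5 libraries below their controls and both induced mEx5 libraries above theirs. Line and cDNA isoform cannot be told apart in these differences.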

How the results depend on the processing

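The 76 microexons called on knockdown in both lines became 56 at 15 points, 104 at 5 points, 63 with events of any mean PSI, 56 with these and no weights and 60 at 50 reads. Leaving out 1 library gave 73 to 79. With events of any mean PSI and no weights, both changed together, the counts were 37 and 27 for knockdown in pEx5 and mEx5, 11 and 15 for induction against knockdown, 0 and 0 for induction against control and 0 for the induced lines. With weights kept and events of any mean PSI they were 41 for knockdown in mEx5, 29 and 23 for induction against knockdown, 7 and 4 for induction against control and 6 for the induced lines. Induction against control gave 5 and 6 at 15 points, 8 and 2 with a variance floor of 0.05, and 3 in mEx5 from the groups compared alone. Leaving out 1 library gave 57 to 66 and 43 to 67 for knockdown in pEx5 and mEx5, 36 to 49 and 35 to 50 for induction against knockdown, 5 to 14 and 2 to 10 for induction against control and 8 to 17 for the induced lines. Where this left a group with 1 library, that library was assumed to vary like the other groups. The control lines gave 1 with a pseudocount of 1. For the induced lines, comparing the change from knockdown gave 1 and the change from control 3, both chosen after seeing the data. Under the change from knockdown the Mroh1 (Heatr7a) difference of 21.9 points became -0.5 points (limma adjusted p = 0.959). The cause of these shifts was not tested. Of the alternatives for named exons 633 kept direction and call, 68 kept direction and lost the call and 1 reversed. For knockdown in both lines only Plekha5 and Ccdc66 lost the call, under 4 alternatives each. Most losses were in comparisons of induced cells. Against control in mEx5, Rasgrp2 lost it under 8, Ncor1 under 7 and Mapk8ip3 under 6. In pEx5 Mfsd6 lost it under 6 and Mink1 under 5, while Dock4 and Ckap5 lost it under 1 in each line. Between the induced lines Fbxo25 lost it under 7 and Trrap under 5. With the replicate letter as a block (replicate block) 76 were called on knockdown in both lines. The difference between libraries A and B of a group, in log odds over all events tested, correlated between groups at -0.015 to 0.015. Counting error enters these differences, so they do not settle whether the letters mark a shared batch. Depth limits exons such as that of Ttc28, with 11 to 25 reads.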
